A study of Canis lupus familiaris with 18 samples.

Results

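Fatty acid oxidation was followed in dog adipose tissue through 34 named genes, whose products carry fatty acids into mitochondria and peroxisomes, break them down there or pass on the electrons released. The genes were chosen by name, with earlier results of these data known, so no test of the list as a whole was made. Every probe set (a group of short array probes for 1 transcript) with a single platform gene symbol from the list was taken, and a gene with several was represented by the probe set with the highest mean over all arrays. Of the 34 genes 29 had such a probe set, among 15115 genes represented in the whole table. SLC25A20, ACAD11, ACOT2, PHYH and HACL1 were not analysed here. Of the 29 genes 28 reached log2 4 in 4 or more arrays and were tested. ACOX3, a peroxisomal oxidase of branched-chain fatty acids, reached that level in 3 of 18 arrays, was not tested and had group means of 3.48 to 3.92.

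The arrays came from 9 intact female beagles, 4 years old. In the ad libitum group 5 dogs (animals 2, 5, 6, 7 and 8) were given unrestricted food for 24 weeks and were obese by the study's description. In the control group 4 dogs (animals 1, 3, 4 and 9) received the amount that held their starting weight and were lean. Both groups ate the same diet, Purina Pro Plan Performance Formula, and gonadal and subcutaneous fat of each dog was sampled after a night without food. This gives gonadal fat of 5 ad libitum and 4 control dogs and subcutaneous fat of the same 5 and 4 dogs, 18 Affymetrix canine arrays in all. Each array holds whole tissue of 1 dog, so dogs are the replicates.

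Before a fatty acid is oxidised it is bound to coenzyme A. Carnitine palmitoyltransferase 1 on the outer mitochondrial membrane exchanges coenzyme A for carnitine, the acylcarnitine crosses the inner membrane, and carnitine palmitoyltransferase 2 restores the acyl-CoA inside. Each turn of β-oxidation then removes an acetyl unit through dehydrogenation, hydration, a further dehydrogenation and thiolysis, while peroxisomes shorten very long and branched chains. White fat stores and releases fatty acids and oxidises comparatively few of them, whereas brown adipocytes oxidise many. The roles given below are those known from human and mouse.

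All arrays carried adipocyte transcripts, with ADIPOQ (adiponectin) at log2 values of 13.83 to 15.56, but several stood apart on other markers. The values below are list scores, the median over the tested genes of a marker list of the log2 value minus the median of the gene in the depot. Skeletal muscle genes (16 of 29 tested) scored 6.08 in gonadal fat of ad libitum dog 2, and 4.41 and 4.61 in subcutaneous fat of control dogs 3 and 4. Gonadal fat of ad libitum dog 6 scored 4.52 for ciliated epithelium (2 of 22 genes tested) and subcutaneous fat of control dog 4 scored 2.73 for it and 4.07 for mesothelium. TEKT1, a protein of the ciliary axoneme that was not among the genes tested, read 11.18 and 9.45 in these 2 arrays and 2.13 to 2.29 in the other 16. The adipocyte list (11 of 12 genes tested) was lowest, at −1.46, −1.37, −1.19 and −1.44, in gonadal fat of ad libitum dog 6 and control dog 3 and in subcutaneous fat of ad libitum dog 5 and control dog 3. UCP1, the heat-producing uncoupling protein of brown adipocytes, read 10.01 in subcutaneous fat of ad libitum dog 2. It read 1.96 to 3.25 in the other 17 arrays. Other brown and beige adipocyte genes did not set the array of dog 2 apart as UCP1 did. PRDM16, DIO2 and ELOVL3 read 1.97, 2.44 and 1.93 there and at most 2.56 in any array. CIDEA read 15.23 (13.85 to 15.06 in the other arrays), COX7A1 10.6 (8.93 to 10.46) and EBF2 8.20 (6.19 to 9.14). That list (3 of 8 genes tested) scored 0.38 in this array, and whether it held brown adipocytes was not tested. In whole tissue, fewer cells of a type and less RNA per cell cannot be told apart. Per the labels only the subcutaneous arrays had been submitted before, so a batch of arrays and the depot cannot be told apart either.

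In subcutaneous fat 24 of the 28 genes had a higher mean in ad libitum than in control dogs and 4 a lower one. The median difference was 0.49 log2 units, beside 0.00 over all 8650 genes tested, of which 50.1% had a difference above 0. ECI1, ECI2 and CPT2 rose past the threshold, an adjusted p under 0.05 by limma with Benjamini-Hochberg adjustment over 21484 probe sets, and 0 of the 28 genes fell. Over all genes 2.31% passed that threshold, 1.97% higher and 0.347% lower in ad libitum dogs. At an unadjusted p under 0.05, 10 of the 28 genes were higher and 1 was lower, against 14.9% and 8.84% of all genes. Differences are in log2 units with standard errors from limma, levels are log2 values with SD between dogs, and values per array run over ad libitum dogs 2, 5, 6, 7 and 8 or control dogs 1, 3, 4 and 9.

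The largest subcutaneous differences among the 28 lay in the enzymes that deal with double bonds. ECI1 and ECI2 are enoyl-CoA isomerases, which move a double bond of an unsaturated fatty acid so that β-oxidation can go on; ECI1 is mitochondrial and ECI2 is found in mitochondria and peroxisomes. Subcutaneous ECI2 read 13.35, 11.81, 13.39, 12.97 and 13.33 in ad libitum dogs, against 11.38, 10.42, 11.14 and 11.28 in control dogs. The lowest ad libitum dog, dog 5, still lay above the highest control dog, so the groups did not overlap. ECI2 rose by 1.92 ± 0.32, or 3.78-fold (n = 5 and 4, limma adjusted p = 0.0163). Subcutaneous ECI1 read 11.89, 8.61, 10.88, 10.57 and 10.88 in ad libitum dogs, against 8.81, 7.75, 7.61 and 8.06 in control dogs. Here ad libitum dog 5 fell below control dog 1 and the other 4 ad libitum dogs lay above every control dog. ECI1 rose by 2.51 ± 0.64, or 5.70-fold (limma adjusted p = 0.0491). DECR1, the mitochondrial 2,4-dienoyl-CoA reductase that acts on polyunsaturated chains, differed by 0.26 ± 0.37 (limma adjusted p = 0.697).

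In the carnitine shuttle CPT2 rose, and the isoforms of the outer membrane enzyme did not pass the threshold. CPT2 read 11.15, 11.13, 10.63, 11.15 and 10.71 in subcutaneous fat of ad libitum dogs, against 9.94, 10.26, 10.52 and 10.15 in control dogs. The groups did not overlap, and the gap between them was narrow, with ad libitum dog 6 at 10.63 and control dog 4 at 10.52. CPT2 rose by 0.73 ± 0.18, or 1.66-fold (limma adjusted p = 0.047). CPT1A, the liver-type isoform that malonyl-CoA inhibits, read 11.15, 10.40, 10.70, 10.84 and 11.36 in ad libitum dogs, against 11.07, 11.15, 10.96 and 10.92 in control dogs. Ad libitum dogs spread on both sides of the control dogs, and the difference was −0.14 ± 0.21 (limma adjusted p = 0.723). CPT1B, the isoform of muscle and brown fat, read 4.18, 4.32, 4.56, 4.29 and 3.84 in ad libitum dogs, against 4.85, 4.66, 5.66 and 4.99 in control dogs. These levels lie close to the floor of 4, and every ad libitum dog lay below every control dog. The difference of −0.80 ± 0.33 did not pass (limma adjusted p = 0.165). CPT1B was the only one of the 28 genes whose groups separated downward, beside 4.34% of all genes. ECI2 and CPT2 were the 2 that separated upward, beside 6.13% of all genes. CRAT, the acetyltransferase that exports short acyl groups as carnitine esters, differed by 1.15 ± 0.44 (limma adjusted p = 0.138).

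**Figure D1:**
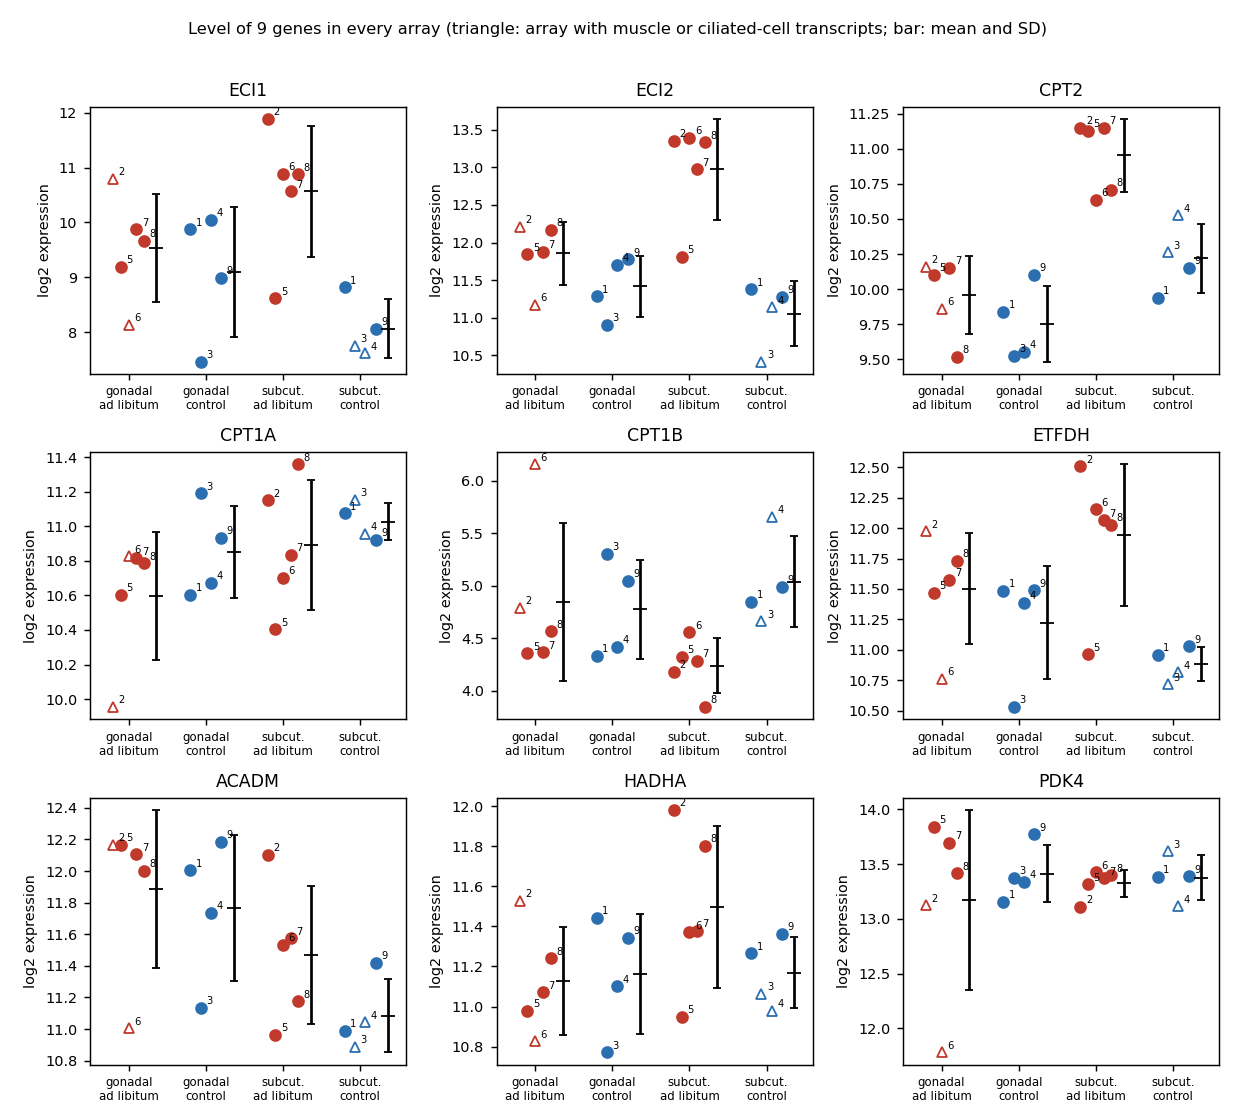
Log2 level of 9 genes in every array of the 4 groups, with points numbered by dog, triangles for arrays rich in muscle or ciliated-cell genes, and bars for the mean and SD. Subcutaneous ECI2 and CPT2 of the 5 ad libitum dogs all lie above those of the 4 control dogs, while PDK4 overlaps between the feeding groups of both depots.

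The acyl-CoA dehydrogenases ACADVL, ACADL, ACADM, ACADS and ACAD9, which open each turn of the cycle, differed by 0.36 to 0.71 in subcutaneous fat, with 5 of 5 above 0 and 0 past the threshold. ACADM, the medium-chain enzyme, read 12.10, 10.96, 11.53, 11.57 and 11.18 in ad libitum dogs, against 10.99, 10.89, 11.04 and 11.42 in control dogs. The groups overlapped and differed by 0.38 ± 0.28 (limma adjusted p = 0.405). Of the enzymes for hydration, hydroxyacyl oxidation and thiolysis (HADHA, HADHB, HADH, ECHS1 and ACAA2) 5 of 5 were above 0, by 0.16 to 0.81. HADHA, the α subunit of the trifunctional protein of long-chain oxidation, read 11.98, 10.95, 11.37, 11.38 and 11.80 in ad libitum dogs, against 11.27, 11.06, 10.98 and 11.36 in control dogs. Ad libitum dog 5 was below all control dogs, and the difference was 0.33 ± 0.21 (limma adjusted p = 0.341). ACAA2, the mitochondrial thiolase, differed by 0.81 ± 0.28 (limma adjusted p = 0.112) and had the largest difference of this group.

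The electron transfer flavoprotein takes the electrons of the dehydrogenases, and its ubiquinone oxidoreductase hands them to the respiratory chain. All 3 of these genes had an unadjusted p under 0.05 in subcutaneous fat and 0 of 3 passed the threshold. ETFDH, the oxidoreductase, read 12.51, 10.96, 12.16, 12.06 and 12.03 in ad libitum dogs, against 10.96, 10.72, 10.82 and 11.03 in control dogs. Dog 5 lay among the control dogs and the other 4 ad libitum dogs about 1 log2 unit above them. ETFDH differed by 1.06 ± 0.29 (limma adjusted p = 0.0619), ETFB by 0.77 ± 0.27 and ETFA by 0.70 ± 0.28.

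Among peroxisomal genes 5 of 6 were above 0 in subcutaneous fat and 0 passed. ABCD3, the peroxisomal membrane transporter of fatty acids, read 6.61, 5.71, 6.10, 6.53 and 6.37 in ad libitum dogs, against 4.82, 5.79, 5.59 and 5.77 in control dogs. It had the largest difference of the group, 0.77 ± 0.24 (limma adjusted p = 0.0845). ACOX2, an oxidase of branched-chain fatty acids and bile acid intermediates, read 7.99, 4.57, 4.14, 4.79 and 5.56 in ad libitum dogs, against 4.83, 4.62, 5.45 and 4.28 in control dogs. Its difference of 0.61 ± 0.61 came with 1 high array, that of dog 2. EHHADH, the peroxisomal bifunctional enzyme, read 9.31, 9.16, 8.73, 8.57 and 8.52 in ad libitum dogs, against 9.15, 9.40, 9.28 and 9.13 in control dogs. Its difference was −0.38 ± 0.19 (limma adjusted p = 0.226). HSD17B4, the other bifunctional enzyme, differed by 0.49 ± 0.27, and SCP2, a thiolase and sterol carrier protein, by 0.39 ± 0.16. ACAA1, the peroxisomal thiolase, differed by 0.42 ± 0.32, and ACOT8, a peroxisomal thioesterase, by 0.26 ± 0.20.

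PDK4, the kinase that shuts off pyruvate dehydrogenase and so saves glucose when fat is burned, overlapped between the groups. It read 13.11, 13.32, 13.43, 13.37 and 13.40 in subcutaneous fat of ad libitum dogs, against 13.38, 13.62, 13.11 and 13.39 in control dogs. The difference was −0.05 ± 0.30 (limma adjusted p = 0.934), and both groups lay high in the range of the arrays, which ended at 16.51. The other tested probe set of PDK4, with a mean of 9.56 against 13.31 over all arrays, differed by 0.81 (limma adjusted p = 0.338).

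**Figure D2:**
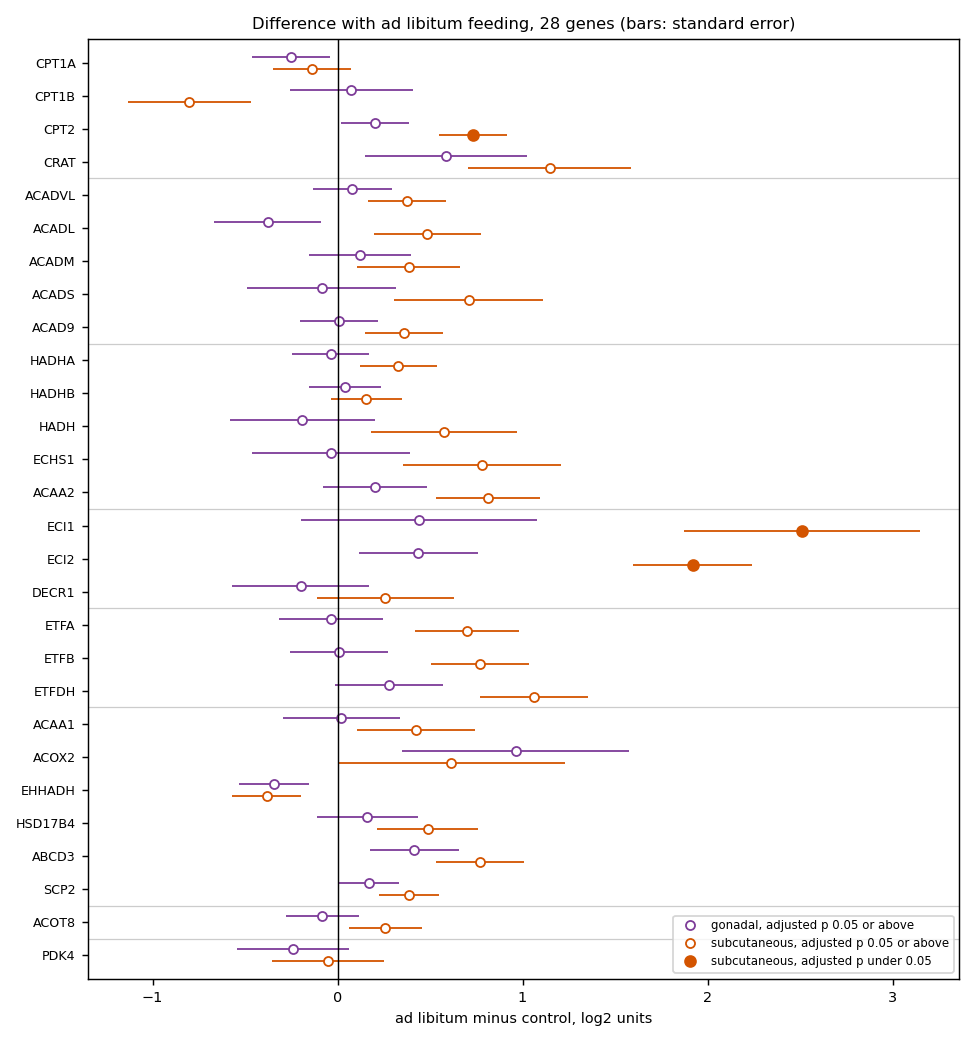
Difference between ad libitum and control dogs in log2 units for each of the 28 genes (points, bars are standard errors), for gonadal and subcutaneous fat, with filled points for an adjusted p under 0.05. In subcutaneous fat 24 points lie above 0 and ECI1, ECI2 and CPT2 are filled, while in gonadal fat 17 lie above 0 and none is filled.

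The subcutaneous calls changed with the arrays included, while the differences moved less. Subcutaneous fat of ad libitum dog 2, which carries UCP1, was the highest of the 9 subcutaneous arrays for 20 of the 28 genes, beside 21.8% of all genes. Subcutaneous fat of control dog 3 was the lowest for 13 of 28, beside 15.9% of all genes. Leaving out ad libitum dog 2, 7 or 8 or control dog 1 or 4 brought the number of genes called to 0, and leaving out control dog 3 or 9 brought it to 1, ECI2. Without ad libitum dog 6 it was 2, CPT2 and ECI2. Without ad libitum dog 5 it was 9, adding CRAT, ACAA2, ETFA, ETFB, ETFDH and ABCD3, all higher. Without the arrays rich in muscle or ciliated-cell genes, which leaves 2 subcutaneous control dogs, it was 0, and ECI2 differed by 1.64 (limma adjusted p = 0.122). In all these fits the differences of ECI1, ECI2 and CPT2 stayed above 0. With each dog left out in turn ECI1 differed by 2.18 to 3.00, ECI2 by 1.71 to 2.21 and CPT2 by 0.64 to 0.84. The number called over all 21484 probe sets moved widely as well. It ran from 3 to 2703 with each dog left out, against 506 in the fit of all arrays.

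Other measures moved with the subcutaneous comparison. The adipocyte list was higher in ad libitum dogs for 11 of 11 genes, with a median of 0.73, and its score ranged between −1.19 and 0.78 in ad libitum dogs, against −1.44 and 0.00 in control dogs. LEP, the satiety hormone made by fat cells, was its 1 gene past the threshold, at 2.71 (limma adjusted p = 0.0468). Fibroblast and progenitor genes were lower in 10 of 10, with a median of −0.82 and 0 past the threshold. Skeletal muscle genes were lower in 15 of 16, with a median of −2.07 and 1 past the threshold, and their score ranged between −0.04 and 0.42 in ad libitum dogs, against −0.01 and 4.61 in control dogs. Mesothelium genes were lower in 5 of 6, with a median of −1.07 and 0 past it. CPT1B, also a muscle transcript, differed by −0.68 without the arrays rich in muscle or ciliated-cell genes (limma adjusted p = 0.27). The signal of the 3′ over the 5′ actin control, which grows as RNA is shorter, was 3.49 ± 0.77 log2 units in ad libitum dogs and 4.75 ± 1.02 in control dogs (SD, n = 5 and 4, exact two-sided permutation p = 0.0873 over 126 regroupings). Another 5′ probe set of actin gave a smaller gap, 6.67 ± 0.27 in ad libitum and 7.08 ± 0.25 in control dogs, and was not used as a covariate. With the first signal as a covariate 0 of the 28 genes were called and ECI2 differed by 1.75 (limma adjusted p = 0.111). The part of these measures in the differences was not tested otherwise. Without the 4 arrays of low adipocyte score, a choice made after seeing the data that drops 1 array per group and so narrows the spread, 10 genes were called. These were ECI1, ECI2, CPT2, ECHS1, ACAA2, ETFA, ETFB, ETFDH and ABCD3, all higher, and CPT1B, lower, at −0.95 (limma adjusted p = 0.0194).

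In gonadal fat of the same dogs the 28 genes showed no feeding difference past the threshold. The median difference was 0.03, with 17 above 0 and 11 below, beside 50.9% above 0 over all genes. By limma 0 of 28 passed, 0 of 28 had an unadjusted p under 0.05, and over all genes 0% passed and 2.4% had an unadjusted p under 0.05. Gonadal ECI2 read 12.21, 11.84, 11.17, 11.88 and 12.17 in ad libitum dogs, against 11.29, 10.91, 11.71 and 11.78 in control dogs. The groups overlapped, with a difference of 0.44 ± 0.32. Gonadal ECI1 read 10.80, 9.19, 8.13, 9.87 and 9.67 in ad libitum dogs, against 9.88, 7.46, 10.05 and 8.98 in control dogs. That is a difference of 0.44 ± 0.64, with a spread of more than 2 log2 units in each group. Gonadal CPT2 read 10.16, 10.10, 9.86, 10.15 and 9.52 in ad libitum dogs, against 9.84, 9.53, 9.55 and 10.10 in control dogs, and differed by 0.20 ± 0.18.

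The smallest p values in gonadal fat belonged to peroxisomal genes, EHHADH, ABCD3 and ACOX2, each with a limma adjusted p of 0.9999. EHHADH read 9.05, 8.63, 8.30, 8.96 and 9.08 in ad libitum dogs, against 9.26, 9.17, 9.05 and 9.11 in control dogs, and differed by −0.34 ± 0.19. Its other tested probe set pointed the other way, by 0.32. ABCD3 read 6.17, 6.63, 5.78, 6.52 and 6.64 in ad libitum dogs, against 5.83, 5.76, 6.21 and 5.93 in control dogs, a difference of 0.42 ± 0.24. ACOX2 read 6.53, 4.85, 6.86, 5.15 and 5.22 in ad libitum dogs, against 4.53, 4.71, 5.08 and 4.70 in control dogs. Its highest arrays were those of dogs 2 and 6, which carried muscle and ciliated-cell transcripts, and the difference was 0.96 ± 0.61.

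The remaining gonadal levels overlapped between the feeding groups. CPT1A read 9.95, 10.60, 10.83, 10.81 and 10.79 in ad libitum dogs, against 10.60, 11.19, 10.67 and 10.93 in control dogs. CPT1B read 4.79, 4.36, 6.16, 4.37 and 4.57 in ad libitum dogs, against 4.33, 5.31, 4.42 and 5.05 in control dogs. The high CPT1B value was that of dog 6, whose array carried ciliated-cell transcripts. PDK4 read 13.12, 13.84, 11.78, 13.70 and 13.42 in ad libitum dogs, against 13.15, 13.37, 13.34 and 13.77 in control dogs, with dog 6 the lowest. ACADM read 12.16, 12.17, 11.00, 12.11 and 12.00 in ad libitum dogs, against 12.01, 11.13, 11.74 and 12.19 in control dogs. HADHA read 11.53, 10.98, 10.83, 11.07 and 11.24 in ad libitum dogs, against 11.44, 10.77, 11.10 and 11.34 in control dogs. In both of these genes the lowest arrays were ad libitum dog 6 and control dog 3, the arrays of low adipocyte score.

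Whether the depots responded differently to feeding was tested directly. The gonadal response was below the subcutaneous one for 25 of the 28 genes, with a median of −0.38, beside −0.01 over all genes, of which 48.8% were above 0. By limma 0 of 28 passed, beside 0% of all genes. At an unadjusted p under 0.05, 2 of 28 were lower, ECI2 and ECI1, beside 4.3% of all genes. ECI2 had a difference of −1.48 ± 0.46, ECI1 of −2.07 ± 0.90 and ACADL of −0.86 ± 0.41, each with a limma adjusted p of 0.748. A difference between the depots in the response to feeding was therefore not shown for any of the 28 genes in the fit of all arrays. Marker lists leaned one way in this contrast, with 0 of their genes past the threshold by limma. Adipocyte genes were below 0 for 11 of 11 (median −0.64), fibroblast and progenitor genes above 0 for 10 of 10 (median 0.59) and skeletal muscle genes above 0 for 15 of 16 (median 2.77). Their part in the shift of the 28 genes was not tested. Without the 4 arrays of low adipocyte score ECI2 passed at −1.56 (limma adjusted p = 0.0481). That choice was made after seeing the data and narrows the spread, so this pass is no independent support.

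Between depots the ad libitum dogs showed lower CPT2 and ECI2 in gonadal fat, and the other genes did not pass. Of the 28 genes 12 were higher and 16 lower in gonadal fat, with a median of −0.12, beside 48.4% higher over all genes. By limma 0 rose and 2 fell, beside 7.46% of all genes called, 2.71% higher and 4.75% lower in gonadal fat. This comparison uses the same subcutaneous arrays of ad libitum dogs as the feeding comparison, so ECI2 and CPT2 are not found independently in both. CPT2 was lower in gonadal fat in 5 of 5 dogs, by −0.99, −1.02, −0.77, −0.99 and −1.19 in dogs 2, 5, 6, 7 and 8, beside 16.3% of all genes lower in every dog. The depots did not overlap, beside 5.45% of all genes lower without overlap, and CPT2 fell to 9.96 ± 0.28 in gonadal fat, against 10.95 ± 0.26 in subcutaneous fat (SD, n = 5 each, difference −0.99 ± 0.17, limma adjusted p = 0.0033). In all 23 alternatives run this call held, with an adjusted p of 0.00106 to 0.0434. ECI2 was lower in 4 of 5 dogs, with differences of −1.14, 0.03, −2.22, −1.09 and −1.16. It fell to 11.86 ± 0.42 in gonadal fat, against 12.97 ± 0.67 in subcutaneous fat (difference −1.12 ± 0.30, limma adjusted p = 0.0358). Leaving out any of dogs 1, 2, 4, 6, 7 and 8 ended the ECI2 call, as did leaving out the arrays rich in muscle or ciliated-cell genes (difference −1.01, limma adjusted p = 0.0831).

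CPT1B had the third smallest p of this comparison and was higher in gonadal fat in 5 of 5 dogs, by 0.61, 0.03, 1.60, 0.08 and 0.72, beside 12.7% of all genes higher in every dog. Its difference of 0.61 ± 0.31 did not pass (limma adjusted p = 0.253). Without the arrays rich in muscle or ciliated-cell genes the difference was 0.19, and with the actin signal as a covariate it was 0.69 and passed (limma adjusted p = 0.0407). The electron transfer genes were all lower in gonadal fat of ad libitum dogs, by −0.44 to −0.24, and 0 of 3 passed. The adipocyte list gave 6 of 11 genes higher, with a median of 0.08. The fibroblast and progenitor list gave 9 of 10 lower and 3 past the threshold. Macrophage genes were lower in gonadal fat for 15 of 15, with 2 past it, and 4 of 6 mesothelium genes rose. The part of these lists in the depot differences was not tested.

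In control dogs the balance between depots lay the other way, with 21 of the 28 genes higher in gonadal fat, 7 lower and a median of 0.38. Over all genes 51.5% were higher and the median was 0.02. By limma 1 gene, ACADL, rose and 0 fell, beside 2.95% of all genes called, 1.14% higher and 1.8% lower. At an unadjusted p under 0.05, 6 of 28 were higher and 1 lower, against 9.27% and 10.3% of all genes. ACADL and ETFA were the 2 genes whose depots separated upward, beside 4.96% of all genes. ACADL is the long-chain acyl-CoA dehydrogenase. ACADL read 6.85, 5.21, 6.17 and 5.82 in gonadal fat, against 5.07, 4.61, 4.49 and 5.20 in subcutaneous fat. It was higher in gonadal fat in 4 of 4 dogs, by 1.78, 0.60, 1.68 and 0.63, beside 14.6% of all genes higher in every dog, and the depots did not overlap, although 5.21 and 5.20 nearly met. The difference was 1.17 ± 0.31, or 2.25-fold (limma adjusted p = 0.0494). In ad libitum dogs ACADL read 6.11, 5.45, 4.95, 6.09 and 5.58 in gonadal fat, against 5.48, 5.20, 5.19, 5.59 and 5.17 in subcutaneous fat, a difference of 0.31 ± 0.27. The call in control dogs sits at the threshold. It was lost without any one of dogs 1, 2, 3, 4, 5, 7, 8 and 9, and without the arrays rich in muscle or ciliated-cell genes (0.88, limma adjusted p = 0.237).

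HSD17B4 and ECHS1 followed ACADL in control dogs and did not pass. HSD17B4 read 11.20, 10.63, 11.10 and 11.60 in gonadal fat, against 10.41, 9.94, 10.31 and 10.90 in subcutaneous fat. It was higher in 4 of 4 dogs and the depots overlapped between dogs, with a difference of 0.74 ± 0.29 (limma adjusted p = 0.158). ECHS1, the mitochondrial enoyl-CoA hydratase, read 12.64, 10.94, 12.55 and 11.89 in gonadal fat, against 11.38, 10.14, 10.64 and 11.39 in subcutaneous fat. The difference was 1.12 ± 0.45 (limma adjusted p = 0.174). Without the arrays of low adipocyte score both passed, HSD17B4 at 0.76 (limma adjusted p = 0.0371) and ECHS1 at 1.23 (limma adjusted p = 0.0249). Those arrays were picked after seeing the data and had the lowest median of the 28 genes in each group. Dropping them narrows the spread, so these passes are no independent support. CPT2 was lower in gonadal fat in 4 of 4 control dogs, by −0.10, −0.74, −0.97 and −0.05 in dogs 1, 3, 4 and 9, beside 14.9% of all genes, and did not pass (−0.46 ± 0.19, limma adjusted p = 0.191). The depots of control dogs differed in other lists as well: adipocyte genes were higher in gonadal fat for 11 of 11, with a median of 0.74 and 0 past the threshold, and fibroblast and progenitor genes were lower for 10 of 10, with 4 past it. Macrophage genes were lower for 15 of 15 (median −0.92) and skeletal muscle genes for 16 of 16 (median −2.22), with 0 past the threshold in either list. The skeletal muscle score was 4.41 and 4.61 in subcutaneous fat of control dogs 3 and 4, against 0.02 and −0.01 in dogs 1 and 9. The part of these lists was not tested. The actin signal used as the covariate also differed between the depots of control dogs. It was 2.91 ± 0.91 log2 units in gonadal and 4.75 ± 1.02 in subcutaneous fat (SD). With the actin signal as a covariate the median over the 28 genes was 0.0453 and 14 of 28 were higher. The part of RNA length in the depot differences was not tested otherwise.

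**Figure D3:**
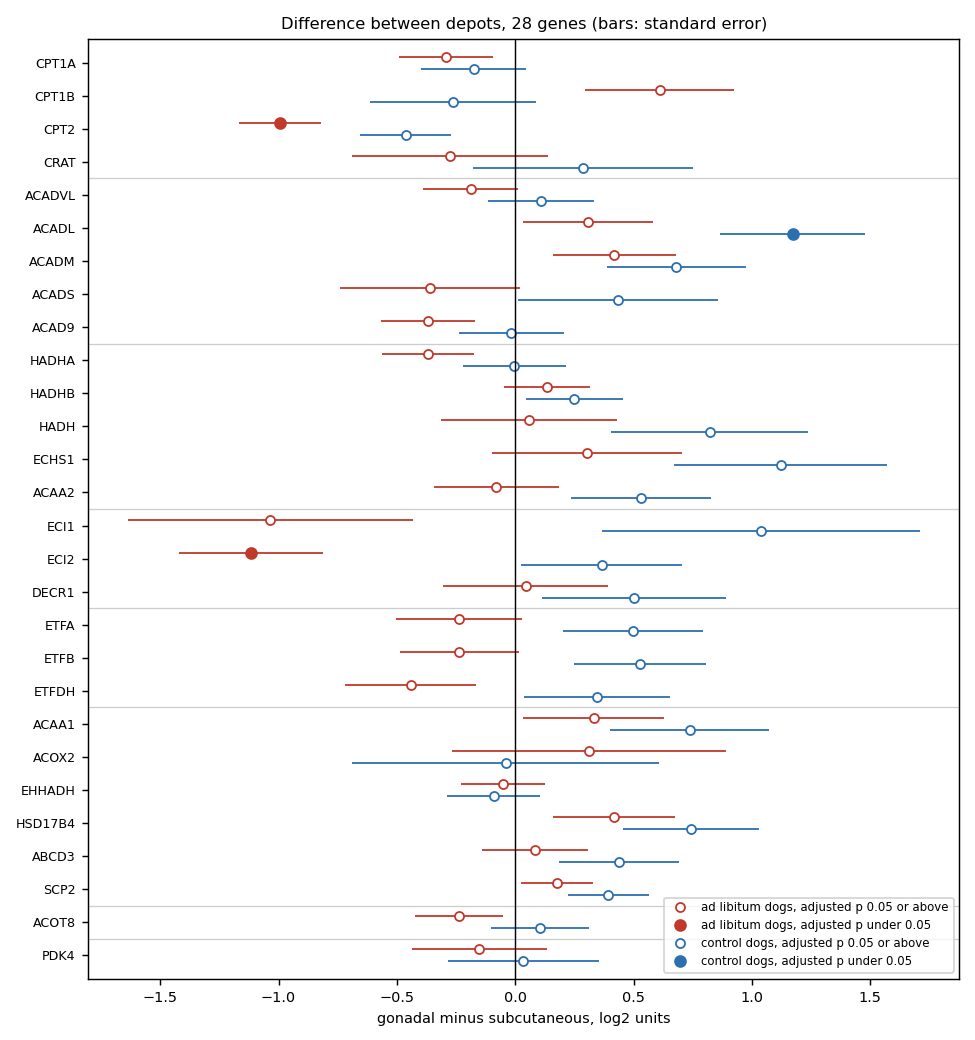
Gonadal minus subcutaneous difference in log2 units for each of the 28 genes (points, bars are standard errors), in ad libitum and control dogs, with filled points for an adjusted p under 0.05. CPT2 and ECI2 are filled below 0 in ad libitum dogs and ACADL is filled above 0 in control dogs.

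Dog by dog, the balance between depots ranged more widely among ad libitum dogs. Gonadal fat was higher for 8, 24, 7, 12 and 13 of the 28 genes in ad libitum dogs 2, 5, 6, 7 and 8, with medians of −0.49, 0.49, −0.45, −0.02 and −0.05. In control dogs 1, 3, 4 and 9 it was higher for 20, 19, 22 and 24, with medians of 0.47, 0.12, 0.53 and 0.43. Over all genes the share higher in gonadal fat lay between 44% and 53.5% in every dog. Among ad libitum dogs the highest count was that of dog 5, whose subcutaneous array had the low adipocyte score. The lowest was that of dog 6, whose gonadal array had the low adipocyte score and carried ciliated-cell transcripts. Dog 2, next to it with 8 genes, had the lowest median, −0.49. Its adipocyte scores were the highest of the ad libitum dogs, 0.78 in subcutaneous and 0.27 in gonadal fat. The part of the adipocyte score in these counts was not tested. Dogs 7 and 8 lay near an even split. CPT2 was lower in gonadal fat in 9 of 9 dogs.

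**Figure D4:**
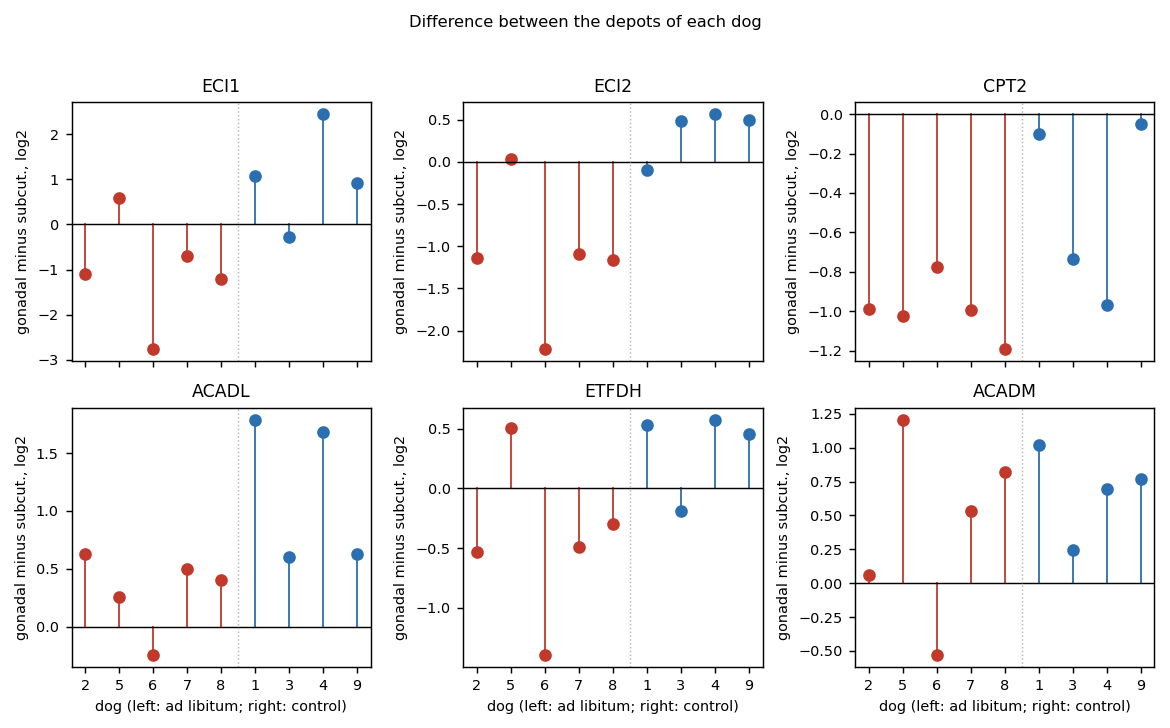
Gonadal minus subcutaneous difference in log2 units within each of the 9 dogs for 6 genes, ad libitum dogs on the left and control dogs on the right of each panel. CPT2 lies below 0 in every dog, and ECI1, ECI2 and ETFDH lie below 0 in ad libitum dogs 2, 6, 7 and 8 but not in dog 5.

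The median of the 28 genes was lowest where the adipocyte list was lowest, and no correlation between the 2 was computed. In each of the 4 groups the array with the lowest adipocyte score also had the lowest median of the 28 genes. These medians, relative to the depot, were −0.50 in gonadal fat of ad libitum dog 6, −0.40 in gonadal fat of control dog 3, −0.28 in subcutaneous fat of ad libitum dog 5 and −0.39 in subcutaneous fat of control dog 3. The highest median, 0.85, was that of subcutaneous fat of ad libitum dog 2, which also had the highest adipocyte score of the depot, 0.78. Single genes departed from these medians. In gonadal fat of control dog 3, CPT1A and CPT1B were the highest of their group, at 11.19 and 5.31. In gonadal fat of ad libitum dog 6, CPT1A (10.83), CPT1B (6.16), DECR1 (9.84) and ACOX2 (6.86) were the highest of their group. That array was the lowest of its depot for 7 of 28 genes, beside 23.5% of all genes. Gonadal fat of control dog 3 was the lowest for 13 of 28, beside 17% of all genes.

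**Figure D5:**
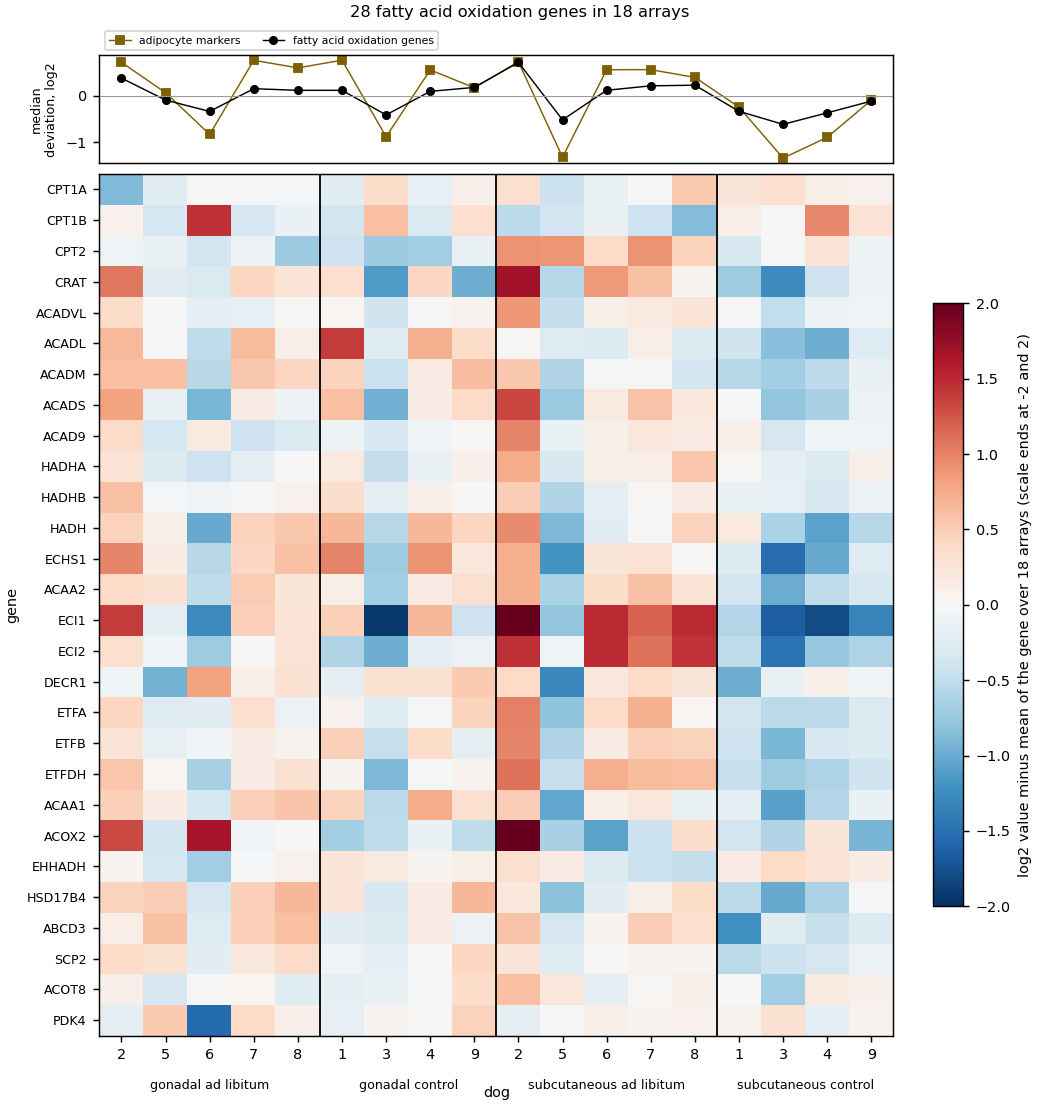
Log2 value of the 28 genes in each of the 18 arrays minus the mean of the gene over all arrays (colour), grouped by depot and feeding, with the median of these genes and of the adipocyte markers above. In each group both medians are lowest in the same array: gonadal ad libitum dog 6, gonadal control dog 3, subcutaneous ad libitum dog 5 and subcutaneous control dog 3.

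Other probe sets of the same genes mostly gave the same direction. There were 37 such tested probe sets for 21 genes, and 32 had the sign of the chosen one for feeding in subcutaneous fat, 31 for depot in ad libitum dogs and 26 for depot in control dogs. ECI2's second probe set gave 2.17 (limma adjusted p = 0.0163) for feeding in subcutaneous fat and ECI1's gave 2.48 (0.0568). CPT2's other probe sets gave 1.03 and 1.37 there (limma adjusted p = 0.0505 and 0.0347), and −1.01 and −1.03 for depot in ad libitum dogs (0.0221 and 0.0434). ETFA was split in ad libitum dogs: 1 of its 4 probe sets was higher in gonadal fat, by 1.56 (limma adjusted p = 0.0075), while the chosen one gave −0.24. In control dogs all 4 were higher in gonadal fat, that one by 2.04 (limma adjusted p = 0.0052) and the chosen one by 0.50. The probe set that stood apart had a mean of 5.18 over all arrays, against 11.90 for the chosen one. EHHADH's second probe set gave 1.37 for feeding in subcutaneous fat (limma adjusted p = 0.117), against −0.38 for the chosen one.

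Neighbouring steps were read from 107 further genes in lists of fatty acid activation and transport, other acyl-CoA enzymes, ketone body and propionate metabolism, peroxisome assembly and regulators, of which 80 were tested. In subcutaneous fat 66 of 80 were above 0 in ad libitum dogs, with a median of 0.54, and 4 rose and 0 fell, beside 50.1% above 0 and 1.97% and 0.347% called higher and lower over all genes. ACSL1, the ligase that couples fatty acids to coenzyme A, read 14.06, 12.32, 13.83, 14.16 and 13.67 in ad libitum dogs, against 11.82, 11.50, 12.24 and 12.20 in control dogs. The groups did not overlap, and ACSL1 rose by 1.67 ± 0.36 (limma adjusted p = 0.0293). ECHDC1, which removes ethylmalonyl-CoA formed as a side product, rose by 1.91 ± 0.43 (limma adjusted p = 0.0331). PEX3, a factor of peroxisome membrane assembly, rose by 1.29 ± 0.33 (limma adjusted p = 0.0492). SIRT5, a mitochondrial lysine desuccinylase that acts on enzymes of fatty acid oxidation, rose by 0.97 ± 0.18 (limma adjusted p = 0.0206). The calls of these 4 genes were not followed in the alternatives, such as leaving out a dog.

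Of the regulators, PPARA, the nuclear receptor that activates many of these genes, read 7.28, 4.18, 6.87, 6.58 and 5.96 in subcutaneous fat of ad libitum dogs, against 5.35, 3.58, 4.87 and 4.29 in control dogs. As with ETFDH, dog 5 lay among the control dogs and the others above them. PPARA differed by 1.65 ± 0.59 (limma adjusted p = 0.117), and PPARGC1A, a coactivator of mitochondrial genes, by 0.95 ± 0.47 (limma adjusted p = 0.231). In gonadal fat 0 of the 80 passed for feeding, and the smallest p values were those of ABCD4, a transporter of the same family as ABCD3, at −0.28 ± 0.11, and of PEX13, a peroxisomal import factor, at 0.37 ± 0.16.

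Between depots of ad libitum dogs 1 of the 80 rose and 2 fell, beside 2.71% and 4.75% of all genes. SLC27A1, a fatty acid transport protein, was higher in gonadal fat by 0.89 ± 0.26 (limma adjusted p = 0.0483). ABCD4 was lower by −0.52 ± 0.11 (limma adjusted p = 0.00883) and SIRT5 by −0.69 ± 0.17 (limma adjusted p = 0.0208). In control dogs 69 of 80 were higher in gonadal fat and 0 passed by limma, beside 51.5% higher and 2.95% called over all genes. At an unadjusted p under 0.05, 13 were higher and 3 lower, against 9.27% and 10.3% of all genes. ACSL5, another acyl-CoA ligase, stood at −1.10 ± 0.30 (limma adjusted p = 0.0549), and OXCT1, which activates ketone bodies for oxidation, at 1.82 ± 0.49 (limma adjusted p = 0.0553). For the difference in feeding response between depots 0 of 80 passed, with ECHDC1 at −1.65 ± 0.60 and SIRT5 at −0.68 ± 0.25, both with a limma adjusted p of 0.748.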

How the data were processed

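Whole-tissue RNA of 2 fat depots of 9 dogs was measured on 18 Affymetrix canine arrays. The deposited table holds log2 expression values that the authors computed with GCRMA, per the submitters' processing notes. The base of the logarithm is read from the range of values (0.68 to 16.51), and which version of GCRMA ran is not given in the sources used here. No scanner file was used. Of 43035 probe sets 111 were array controls, and platform annotation gave 1 symbol to 29254, several to 439 and none to 13231. The 21484 probe sets with at least log2 4 in at least 4 arrays were tested, and in each array 47.2% to 49.0% lay at or above that floor.

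R 4.3.3 with limma 3.58.1 fitted 4 group means over all arrays without a block for the dog (14 residual degrees of freedom, 2.54 added by moderation). P values are two-sided and adjusted by Benjamini-Hochberg over all probe sets tested. The depots of a dog pair by the animal number in the labels. Over all probe sets tested, the deviations of the 2 arrays of a dog from their group means correlated at −0.05 to 0.53. Over the 28 genes they correlated at −0.38 to 0.67. The block changed the call of none of the 28 genes. The number of arrays limits the precision.

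The genes and lists were chosen with earlier results of these data known. Values per array are given for each gene past the threshold, for the 3 genes with the smallest p in each comparison, and for CPT1A, CPT1B, CPT2, ACADM, HADHA and PDK4; those of ETFDH, ACSL1 and PPARA were added. Of the other pathway genes those past the threshold and the 2 with the smallest p of a comparison are named, with PPARA, PPARGC1A and ACSL1. Alternatives changed the filter, normalization, moderation, arrays, probe set per gene, dog block, RNA length covariate and threshold.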

Additional observations from a re-analysis of the deposited data

Results flagged for a closer look

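In 14 of 116 groups of 4 or 5 arrays the highest or lowest array of a fatty acid oxidation gene lay far from the rest, where chance gives about 5.8 (1 in 20). They fell on 6 arrays. In gonadal fat of ad libitum dog 6, the array with ciliated-cell transcripts and a low adipocyte score, ACADM (11.00), HADH (9.53), ACAA2 (12.46), HSD17B4 (10.61) and SCP2 (12.41) were lowest and CPT1B (6.16) was highest. In gonadal fat of ad libitum dog 2, the array with muscle transcripts, CPT1A (9.95) was lowest and HADHB (11.98) highest. Control dog 3 was lowest for ACADVL in gonadal fat (10.26) and in subcutaneous fat (10.17) and for ETFDH in gonadal fat (10.53). Subcutaneous fat of ad libitum dog 5, with a low adipocyte score and a macrophage score of 1.58, was lowest for ECI2 (11.81) and DECR1 (7.74). ACOX3 was highest in subcutaneous fat of ad libitum dog 2 (4.35), the array with UCP1. The part of the other cell types in these values was not tested.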

How the results depend on the processing

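For feeding in subcutaneous fat 3 of the 28 genes were called. The number was 5 at an adjusted p of 0.10, 1 with no filter and 1 with quantile normalization again. It was 0 in a fit of only the arrays compared, 0 without the arrays rich in muscle or ciliated-cell genes and 0 with the actin covariate. It was 10 without the arrays of low adipocyte score, 5 without both kinds of array, and 0 to 9 with each dog left out in turn. For depot in ad libitum dogs 2 genes were called, against 1 with no filter, 1 with only the arrays compared, 1 without the arrays rich in muscle or ciliated-cell genes, 5 without both kinds and 1 to 2 with each dog left out.

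For depot in control dogs 1 gene was called. The number was 0 with no filter, quantile normalization, centred arrays, trended and robust moderation, only the arrays compared, the actin covariate, without the muscle or ciliated arrays and without both kinds. It was 2 with the mean of a gene's probe sets or the one of largest spread (ACADL and ETFA), 6 without the arrays of low adipocyte score, and 0 to 1 with each dog left out. The median difference there was 0.0453 with the actin covariate, against 0.38. For the difference between feeding responses the number was 1 without the arrays of low adipocyte score and 0 otherwise. For feeding in gonadal fat it was 0 in all 23 alternatives. EHHADH in gonadal fat turned to 0.32 with the probe set of largest spread, against −0.34. The low-score alternatives were chosen after seeing the data. With each dog left out, the calls over all probe sets ran from 3 to 2703 for feeding in subcutaneous fat, against 506. They ran from 497 to 1620 for depot in ad libitum dogs, against 1545, and from 143 to 1050 in control dogs, against 627. The causes were not tested.

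With the dog as a random replicate block (correlation 0.168) the genes called were 3, 0, 2, 1 and 0, in the order subcutaneous feeding, gonadal feeding, depot in ad libitum dogs, depot in control dogs and the difference of responses. The block moved the count over all probe sets to 2495, against 1545, for depot in ad libitum dogs and to 1346, against 627, in control dogs. As a fixed replicate block it gave 2 and 1 genes for the depots, and it changed no other call. The signal floor limits CPT1B, ACADL, ACOX2 and ACOX3, which lie near it, and 9 dogs limit every comparison.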
